A study of Mus musculus with 9 samples.

Results

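Counts of 10 protein genes of the mitochondrial genome (mtDNA) were examined in hair cells (HCs) of the mouse inner ear: *mt-Nd1*, *mt-Nd2*, *mt-Nd4*, *mt-Nd5*, *mt-Nd6*, *mt-Cytb*, *mt-Co1*, *mt-Co2*, *mt-Co3* and *mt-Atp6*. They were found by gene symbol among the 43808 genes of the deposited count tables, which hold 37 mtDNA genes in all: 13 protein genes, 2 ribosomal RNAs (rRNAs) and 22 transfer RNAs. Of the 10 genes, 7 had enough reads to be tested (20 or more in 2 or 3 mice of a genotype), and 3 (*mt-Co2*, *mt-Co3* and *mt-Atp6*) did not. Bulk RNA-seq was performed on 9 libraries, each from the HCs of 1 mouse at postnatal day 1, to ask how the Dmdo allele of *Mir96* alters HC transcripts. The product of *Mir96* is miR-96, a microRNA found in sensory cells, and Dmdo changes a base of its seed, with which it recognizes target transcripts. There were 3 wild-type (Mir96+/+; replicates 44, 55 and 59), 3 heterozygous (Mir96+/Dmdo; 45, 48 and 51) and 3 homozygous mutant (Mir96Dmdo/Dmdo; 43, 46 and 47) mice, from a cross of C3HeB/FeJ and C57BL6 animals. All mice, controls included, carried the Atoh1/nGFP reporter, which puts green fluorescent protein into cells that use the *Atoh1* enhancer. Cochlear and vestibular cells positive for the reporter and for the epithelial protein CD326 were collected together, so each library mixes both organs.

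The mtDNA encodes a small set of core subunits of the respiratory chain and ATP synthase, and all other subunits are encoded in the nucleus and imported. Both mtDNA strands are transcribed as long precursors that run through many genes, and the separate messenger RNAs are cut out at the transfer RNAs that lie between them. The levels of these genes are therefore linked at the source, and they are not replicates of each other. HCs drive ion pumps, transmitter release and mechanotransduction from oxidative phosphorylation, and mutations of mtDNA are a known cause of hearing loss.

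Some of these genes also have near-identical copies in the nuclear genome, and the sequences that follow show how close these copies are. For *mt-Co3*, for *mt-Atp6* and for the 3′ part of *mt-Co1*, 90 bases of the mitochondrial gene are set above the same 90 bases of a nuclear pseudogene on chromosome 1. All are read 5′ to 3′ along the gene from the GENCODE transcripts of GRCm38, in lower case, and capitals mark mismatches between the members of a pair.
mt-Co3, chrM:8607-8696, plus strand: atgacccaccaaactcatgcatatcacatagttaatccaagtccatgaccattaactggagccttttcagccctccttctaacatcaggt
Gm28437, chr1:24613882-24613971, minus strand: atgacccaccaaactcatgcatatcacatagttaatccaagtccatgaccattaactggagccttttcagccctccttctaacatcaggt
mt-Atp6, chrM:7927-8016, plus strand: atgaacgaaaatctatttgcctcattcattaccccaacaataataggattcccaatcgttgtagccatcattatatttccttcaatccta
Gm10925, chr1:24614562-24614651, minus strand: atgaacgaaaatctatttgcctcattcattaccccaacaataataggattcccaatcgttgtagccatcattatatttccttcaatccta
mt-Co1, chrM:6381-6470, plus strand: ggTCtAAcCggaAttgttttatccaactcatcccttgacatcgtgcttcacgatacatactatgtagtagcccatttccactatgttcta
Gm29216, chr1:24616108-24616197, minus strand: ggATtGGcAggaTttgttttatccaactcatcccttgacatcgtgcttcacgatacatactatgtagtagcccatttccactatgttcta

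The first 2 pairs show no mismatch in these 90 bases. Over the whole aligned length, *mt-Co3* and *Gm28437* were identical in 783 bases, *mt-Co2* and *Gm28661* in 681 bases, and *mt-Atp6* and *Gm10925* in 678 bases. *Gm29216* covers the last 492 bases of *mt-Co1* (bases 1054 to 1545) with 6 mismatches, an identity of 98.78%, and all of these lie between bases 1056 and 1066, inside the stretch printed. These copies belong to a block of 7 unprocessed pseudogenes on chromosome 1 of GRCm38 (24611535 to 24616197, 4663 bases, minus strand) that follows the mtDNA from position 6381 to 11042.

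Each mtDNA protein gene was divided into all of its windows of 75 bases, the read length of the study, and each window was searched in the annotated nuclear transcripts. Nuclear matches were found for 709 of 710 windows of *mt-Co3* (99.9%), for 607 of 610 windows of *mt-Co2* (99.5%) and for 604 of 607 windows of *mt-Atp6* (99.5%). *mt-Nd4* had a match for 61.5% of its windows, all within its first 876 bases, and *mt-Co1* for 39.8%. The share was 5.7% in *mt-Nd2* and 1.7% in *mt-Nd5*, and no window of *mt-Nd1*, *mt-Nd6* or *mt-Cytb* had one. Only annotated transcripts were searched, so these shares are lower limits.

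The genes whose windows nearly all have a nuclear match were at or near a count of 0. *mt-Co3*, a core subunit of cytochrome c oxidase, had no count in any of the 9 libraries. *mt-Co2*, the subunit that takes electrons from cytochrome c, had 1 count in heterozygous replicate 51 and 0 in the other libraries. *mt-Atp6*, a proton channel subunit of ATP synthase, had 1 count in wild-type replicate 44 and 0 elsewhere. A count of 0 allows up to 3 counts, which is 0.086 to 0.165 CPM (counts scaled to a library's total), a limit that covers counting error only. The 3 mtDNA protein genes outside the set, *mt-Nd3*, *mt-Nd4l* and *mt-Atp8*, were also at 0 in every library, with matches for 97.8%, 98.7% and 0.0% of their windows. *mt-Atp8*, which had no match in the annotated transcripts, overlaps *mt-Atp6* at its 3′ end. It lies at 7766 to 7969, inside the part of the mtDNA (6381 to 11042) that the block on chromosome 1 follows. Nuclear sequence outside annotated transcripts was not searched, so a nuclear copy of *mt-Atp8* may have been missed.

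The nuclear copies themselves had few counts. *Gm28437*, *Gm28661*, *Gm10925* and *Gm28439*, the copies of *mt-Co3*, *mt-Co2*, *mt-Atp6* and *mt-Nd4*, had no count in any library. All 12 annotated copies together had 1064 counts over the 9 libraries, and no copy exceeded 155 in a library. The 3 copies with the minimum of reads were *Gm13340* (like *mt-Co1*, 5 to 139 counts), *Gm13341* (like *mt-Co2*, 0 to 70) and *Gm28438* (like *mt-Nd3*, 0 to 155). How the counting treated reads that fit more than 1 place was not given in the sources used here, and its part in these zeros was not tested. Whether the counts of *mt-Co1* and *mt-Nd4* hold reads from the matched parts of these genes was not tested either.

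**Figure D1:**
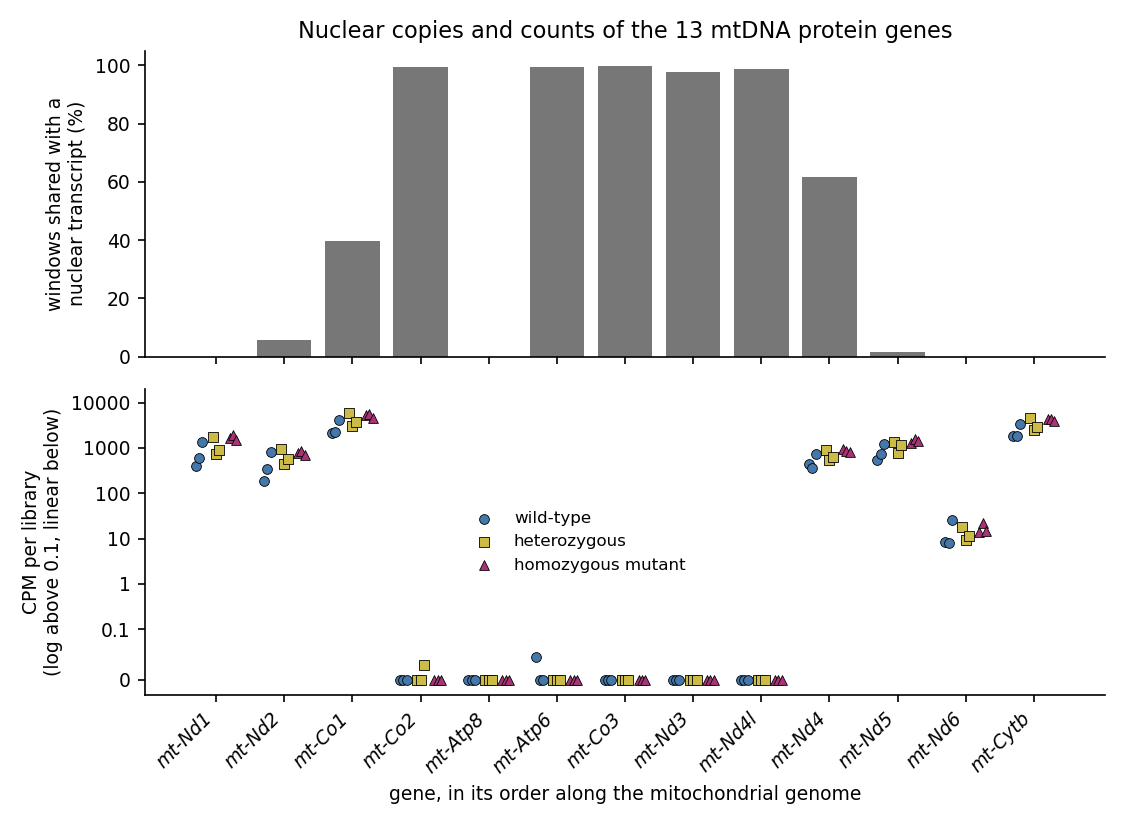
The 13 mtDNA protein genes stand in their order along the mitochondrial genome. The upper panel gives the percent of 75-base windows found exactly in an annotated nuclear transcript, and the lower panel the CPM in each of the 9 libraries (log axis above 0.1, linear below). The 5 genes at 97.8% or more and *mt-Atp8* lie at or next to 0, and the other 7 lie between 8.07 and 6006 CPM.

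The 7 counted genes took 0.562% to 1.56% of a library's counts. By total counts over the libraries *mt-Co1* ranked 3 and *mt-Cytb* 6 among all genes, followed by *mt-Nd1* (36), *mt-Nd5* (43), *mt-Nd4* (112) and *mt-Nd2* (132), with *mt-Nd6* far below (9847). On the scale of level per length, *mt-Cytb* was highest, with a median of 2934 CPM per kb over the 9 libraries (1612 to 4039). *mt-Co1* followed at 2623 CPM per kb (1410 to 3887) and *mt-Nd1* at 1380 CPM per kb (422 to 2001). *mt-Cytb* was above *mt-Co1* in 9 of 9 libraries, by 1.04 to 1.16 times, and *mt-Nd1* was above *mt-Nd5* in 9 of 9.

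The middle of this order, by mean level, was not fixed. *mt-Nd5* had a median level of 661 CPM per kb, *mt-Nd2* of 680 and *mt-Nd4* of 526. *mt-Nd5* was above *mt-Nd2* in 5 of 9 libraries, so these neighbours did not differ beyond their spread, and *mt-Nd2* was above *mt-Nd4* in 8 of 9. *mt-Nd6* was lowest everywhere at 26.5 CPM per kb (15.6 to 49.6), and *mt-Nd4* was 10.6 to 26.4 times higher per kb. Of the mtDNA protein genes only *mt-Nd6* lies on the light strand, from 14070 to 13552 of the mtDNA in GRCm38. Its end overlaps that of *mt-Nd5* (11742 to 13565) on the other strand. The library kit marked strand, but whether counting used it was not stated, so RNA from the strands of this stretch cannot be told apart.

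With the level set on windows without a nuclear match in place of the gene length, the order at the top turned. *mt-Co1* then had a median of 4580 CPM per 1000 such windows and *mt-Cytb* of 3137, with *mt-Co1* higher in 9 of 9 libraries by 1.41 to 1.57 times. By mean level *mt-Nd4* moved from the sixth place to the third, with a median of 1444 CPM per 1000 windows, next to *mt-Nd1* with 1496. These neighbours did not differ beyond their spread, since *mt-Nd4* was higher in 6 of 9 libraries.

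The total count per library was 18175317 to 34873964. No 2 replicates of a genotype were alike within counting noise, with chi-square values per gene of 101.9 to 238.0. Wild-type replicate 59 stood apart from the other wild-type libraries in the mtDNA genes, and homozygous mutant replicate 46 was the shallowest library, so results are also given without them. According to the methods RNA integrity was lower for a wild-type and a homozygous mutant sample, but their mouse numbers are not given, and the part of RNA quality was not tested. The methods also give a range of sorted cell numbers that is lower at both ends for homozygous mutant than for wild-type samples. The part of cell number was not tested. In bulk libraries, fewer cells of a type and less RNA per cell cannot be told apart.

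*mt-Nd1*, *mt-Nd2*, *mt-Nd4*, *mt-Nd5* and *mt-Nd6* encode membrane-arm subunits of complex I, the entry point of NADH electrons. *mt-Nd1* (2751 to 3707 of the mtDNA, plus strand) was at 404, 587 and 1321 CPM in wild-type replicates 44, 55 and 59. In heterozygous replicates 45, 48 and 51 it was at 1758, 745 and 902 CPM, and in homozygous mutant replicates 43, 46 and 47 at 1639, 1915 and 1456 CPM. All homozygous mutant libraries lay above all wild-type libraries, while heterozygous replicate 45 lay among the homozygous mutants. The means were 771 ± 485 (SD, n = 3), 1135 ± 545 (SD, n = 3) and 1670 ± 231 (SD, n = 3) CPM in wild-type, heterozygous and homozygous mutant HCs.

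*mt-Nd2* (3914 to 4951) varied most among wild-type mice, from 185 CPM in replicate 44 and 338 in replicate 55 to 809 in replicate 59, a range of 4.38 times. It was at 957, 436 and 565 CPM in the heterozygous libraries 45, 48 and 51 and at 779, 862 and 706 CPM in the homozygous mutant libraries 43, 46 and 47. Wild-type replicate 59 reached into the homozygous mutant range, so these groups overlapped. The homozygous mutants were close together, at 782 ± 78.5 CPM (SD, n = 3), whereas wild-type HCs had a mean of 444 ± 325 (SD, n = 3) and heterozygous HCs of 653 ± 272 (SD, n = 3).

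*mt-Nd4* (10167 to 11544) was at 436, 363 and 725 CPM in wild-type 44, 55 and 59, and at 888, 527 and 615 CPM in heterozygous 45, 48 and 51. In homozygous mutant 43, 46 and 47 it was at 965, 850 and 829 CPM. *mt-Nd5* was at 540, 721 and 1206 CPM in the wild-type libraries, at 1378, 765 and 1166 in the heterozygous and at 1300, 1606 and 1421 in the homozygous mutant libraries, in the same order. In both genes every homozygous mutant library was above every wild-type library, and the heterozygous libraries spanned both.

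*mt-Nd6* was at 8.40, 8.07 and 25.8 CPM in wild-type 44, 55 and 59. Its other values were 18.2, 9.43 and 11.6 CPM in heterozygous 45, 48 and 51 and 13.7, 21.9 and 14.9 CPM in homozygous mutant 43, 46 and 47. Wild-type 59 was thus the highest of all 9 libraries for this gene, and the genotypes overlapped throughout, at 14.1 ± 10.1, 13.1 ± 4.54 and 16.9 ± 4.40 CPM (SD, n = 3 each). Its counts, 188 to 535 per library, were also the lowest of the 7.

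*mt-Cytb* (14145 to 15288), cytochrome b of complex III, was at 1862, 1845 and 3357 CPM in wild-type 44, 55 and 59. It was at 4620, 2418 and 2926 CPM in the heterozygous libraries and at 4356, 4436 and 3885 CPM in the homozygous mutant libraries. *mt-Co1* (5328 to 6872), the catalytic subunit of cytochrome c oxidase (complex IV), was at 2178, 2229 and 4053 CPM in wild-type 44, 55 and 59. It was at 6006, 2975 and 3664 CPM in heterozygous 45, 48 and 51 and at 5302, 5475 and 4537 CPM in homozygous mutant 43, 46 and 47. For both genes the homozygous mutant range lay above the wild-type range, and the highest value of all was that of heterozygous 45.

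**Figure D2:**
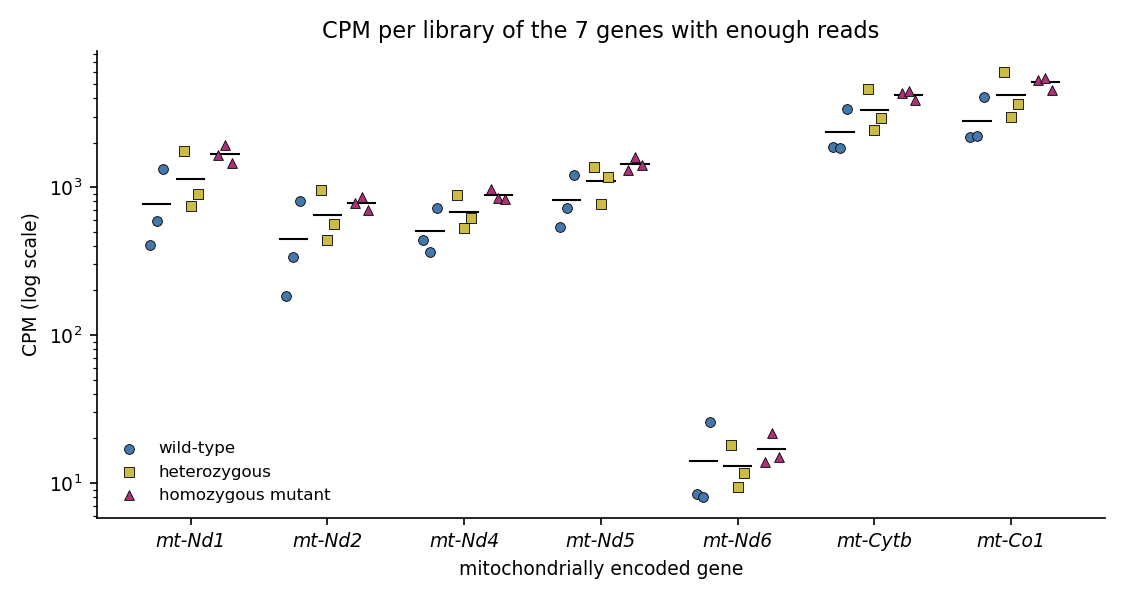
CPM (log axis) of the 7 counted genes in the 9 libraries, 1 point per mouse, in library order within each genotype, with the mean of each genotype as a line. Wild-type 59 is the highest wild-type point in all 7 genes, and the homozygous mutant points are close together except in *mt-Nd6*.

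Much the same libraries were high or low across the genes. Wild-type 59 was the highest wild-type library in 7 of 7 genes, heterozygous 45 was the highest and heterozygous 48 the lowest heterozygous library in 7 of 7, and homozygous mutant 46 was the highest of its genotype in 6 of 7. The lowest library of all 9 was wild-type 44 in 4 genes and wild-type 55 in 3. The shares of the most abundant genes within a library varied less than the total: *mt-Co1* made up 35.3% to 38.8% of the counts of the 7 genes and *mt-Cytb* 29.2% to 33.2%. *mt-Co1* had 1.17 to 1.30 counts per *mt-Cytb* count, a spread of 1.11 times over the 9 libraries. The makeup of wild-type 44 differed most from the others in the complex I genes, where *mt-Nd2* made up 3.29% and *mt-Nd1* 7.20% of these counts, against 5.43% to 7.04% and 9.16% to 12.6% in the others.

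Genotypes were compared with edgeR's quasi-likelihood test in a single model of the 9 libraries (TMM scaling), with Benjamini-Hochberg adjustment over the 15184 genes tested. To be called, a gene needed a false discovery rate below 10% together with a fold above 1.5 in either direction. Between homozygous mutant and wild-type HCs, 0 of the 7 genes were called, where 1.15% of all genes tested were. The log2 fold change was 1.01 for *mt-Nd1* (standard error 0.39, 95% confidence interval 0.17 to 1.86, adjusted p = 0.288), a fold of 2.02. It was 0.76 for *mt-Co1* (standard error 0.28, interval 0.19 to 1.34, adjusted p = 0.245) and 0.75 for *mt-Cytb* (standard error 0.27, interval 0.19 to 1.31, adjusted p = 0.242). *mt-Nd5* had 0.72 (interval 0.13 to 1.30), *mt-Nd4* 0.70 (0.13 to 1.26) and *mt-Nd2* 0.71 (-0.20 to 1.63), with adjusted p-values of 0.282, 0.279 and 0.517. *mt-Nd6* had 0.16 with an interval of -1.54 to 1.86 (adjusted p = 0.965), which includes folds as large as those of the other genes in either direction.

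The estimates lay on 1 side, and their size was not separated from the spread between mice at the adjusted threshold. All 7 log2 fold changes were above 0, with a median of 0.72 against -0.02 over all genes. An unadjusted p under 0.05 with a higher level in the mutants was found for 5 of the 7 genes (all but *mt-Nd2* and *mt-Nd6*), and for 4.92% of all genes tested. In the same 5 genes every homozygous mutant library was above every wild-type library in CPM, as it was for 9.15% of all genes. DESeq2 called 2 of the 7 (*mt-Co1* at an adjusted p of 0.0998 and *mt-Cytb* at 0.0945), and limma-voom with sample quality weights called 6 (all but *mt-Nd6*, adjusted p 0.015 to 0.0671). Over all genes DESeq2 called 6.45% of those it gave an adjusted p and limma-voom 2.23%. Genes on the same strand share precursor RNAs, so the common direction of the 7 genes is not 7 independent observations.

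The estimates were larger without wild-type 59. Without it the log2 fold changes were 1.70 for *mt-Nd1* (called, adjusted p = 0.0632 from edgeR), 1.52 for *mt-Nd2*, 1.15 for *mt-Co1*, 1.14 for *mt-Nd5*, 1.13 for *mt-Cytb*, 1.08 for *mt-Nd4* and 0.98 for *mt-Nd6*, and the median was 1.14. Every homozygous mutant library was then above both remaining wild-type libraries in 7 of 7 genes, where 13.8% of all genes were. Wild-type 59 was the highest wild-type library in 7 of 7 genes and was singled out after the values were seen. Its loss therefore favours this outcome, which is no added evidence of a difference. The share of all genes was taken without the same library, not without the highest wild-type library of each gene. The fit without wild-type 59 called 1 of the 7 genes and 0.173% of all genes. Without wild-type 44 the log2 fold change of *mt-Nd2* was 0.35 and that of *mt-Nd6* -0.11, and without wild-type 55 that of *mt-Nd6* was -0.14. Without both wild-type 59 and homozygous mutant 46, a choice made after the data were seen, the median was 1.10 and 0 of 7 were called (0.155% of all genes).

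**Figure D3:**
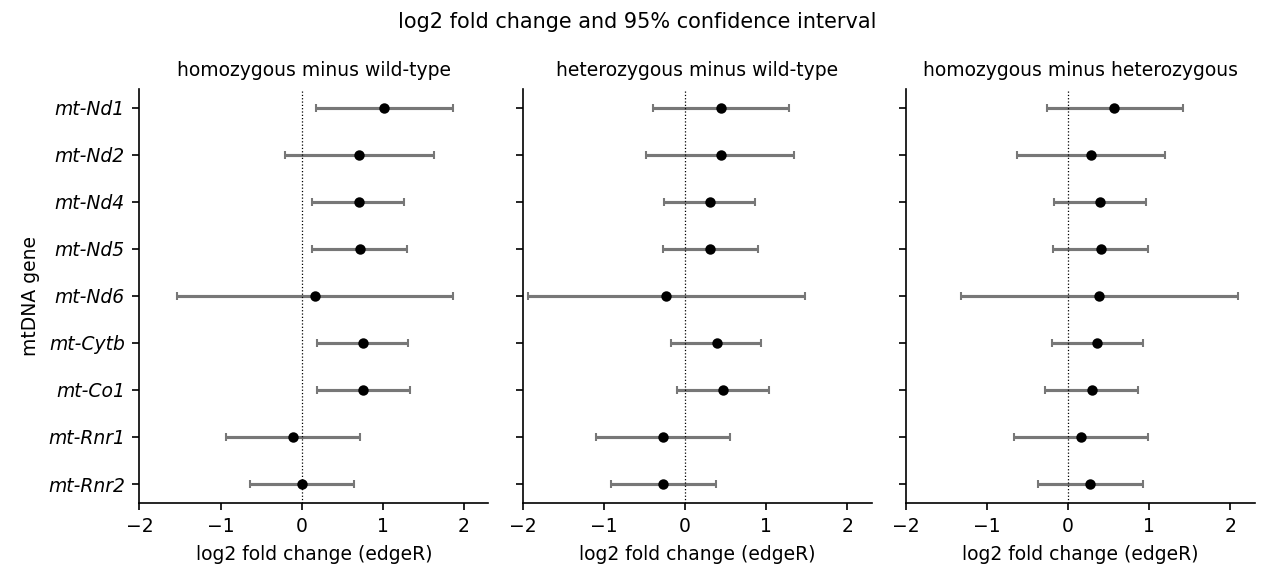
log2 fold changes from edgeR (points) with 95% confidence intervals (bars) for the 7 counted genes and the 2 mitochondrial rRNAs in 3 comparisons of genotypes, with a dotted line at 0. In homozygous minus wild-type HCs 5 intervals lie above 0, and in the other comparisons all intervals include 0.

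Heterozygous HCs were compared with wild-type HCs because heterozygous mice are affected less than homozygous mutants. None of the 7 genes was called (0 of 7), and none of all genes tested was (0.0%). The log2 fold changes were 0.47 for *mt-Co1* (interval -0.10 to 1.04), 0.44 for *mt-Nd1* (-0.39 to 1.28), 0.44 for *mt-Nd2* (-0.48 to 1.35), 0.39 for *mt-Cytb*, 0.31 for *mt-Nd4*, 0.31 for *mt-Nd5* and -0.23 for *mt-Nd6*, with an adjusted p of 1.0 for each from edgeR. No unadjusted p was under 0.05, and neither DESeq2 nor limma-voom called any of the 7 (0.307% and 0.00659% of all genes). In 0 of 7 genes were all heterozygous libraries above all wild-type libraries (6.78% of all genes). The overlap lay in wild-type 59: without it, a choice made after the values were seen, all heterozygous libraries were above the other wild-type libraries in 7 of 7 genes (12.3% of all genes). The median was 0.39, and it was 0.10 without heterozygous 45, 0.13 without wild-type 44, 0.22 without wild-type 55 and 0.77 without wild-type 59.

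Between homozygous mutant and heterozygous HCs, 0 of 7 were called (0.00659% of all genes, a single gene) by edgeR, and also 0 by DESeq2 and limma-voom (0.981% and 0.079% of all genes), and no unadjusted p was under 0.05. The log2 fold changes were 0.28 to 0.57, with a median of 0.38 against 0.00 over all genes, and the adjusted p-values were 0.882 to 1.0. In 0 of 7 genes did the 3 homozygous mutant libraries lie above the 3 heterozygous libraries (6.65% of all genes), since heterozygous 45 was within or above their range. These comparisons share libraries, so their estimates are not independent.

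A trend was fitted over 0, 1 and 2 Dmdo alleles, with no fold threshold. Of the 7 genes, 0 were called by edgeR, where 1.78% of all genes were, and 5 had an unadjusted p under 0.05 with a positive slope, as did 5.16% of all genes. The slope per allele was 0.51 log2 units for *mt-Nd1* (standard error 0.19, adjusted p = 0.229), 0.38 for *mt-Co1* (standard error 0.13, adjusted p = 0.184) and 0.37 for *mt-Cytb* (standard error 0.13, adjusted p = 0.172). It was 0.36 for *mt-Nd2* and *mt-Nd5*, 0.35 for *mt-Nd4* and 0.08 for *mt-Nd6*. DESeq2 called 2 (*mt-Co1* and *mt-Cytb*), limma-voom called 6, and edgeR called 1 (*mt-Nd1*, slope 0.82) without wild-type 59. The same fits called 6.92%, 5.16% and 0.292% of all genes.

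The mitochondrial rRNAs, which lie at the start of the heavy-strand precursor, had estimates near 0 between homozygous mutants and wild-type. Their difference from the messenger RNAs was not tested. *mt-Rnr2*, the large rRNA, was at 244, 190 and 500 CPM in wild-type 44, 55 and 59, at 348, 215 and 274 in heterozygous 45, 48 and 51 and at 347, 287 and 370 in homozygous mutant 43, 46 and 47. *mt-Rnr1*, the small rRNA, was at 53.7 to 163 CPM in wild-type, 57.2 to 110 in heterozygous and 75.8 to 102 in homozygous mutant HCs. Wild-type 59 was the highest library for both, and the genotypes overlapped. The log2 fold change between homozygous mutant and wild-type HCs was 0.00 for *mt-Rnr2* (standard error 0.31, adjusted p = 1.0) and -0.11 for *mt-Rnr1* (standard error 0.40, adjusted p = 0.951 from edgeR). Whether the libraries were enriched for polyadenylated RNA or depleted of rRNA was not stated, and rRNA made up 0.0251% to 0.0662% of the counts.

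Counts of *mt-Co1* and *mt-Nd1* set against *mt-Rnr2* within each library separated wild-type from the other genotypes. These ratios were chosen after the values were seen and are given without a test. *mt-Co1* had 8.94, 11.7 and 8.11 counts per *mt-Rnr2* count in wild-type 44, 55 and 59. It had 17.2, 13.9 and 13.4 in heterozygous 45, 48 and 51 and 15.3, 19.1 and 12.3 in homozygous mutant 43, 46 and 47. *mt-Nd1* had 1.66 to 3.08 counts per *mt-Rnr2* count in wild-type, 3.29 to 5.05 in heterozygous and 3.94 to 6.68 in homozygous mutant libraries. For both ratios wild-type 59 lay among its own genotype, and the heterozygous and homozygous mutant libraries overlapped. *mt-Nd5* was not separated in this way. It had 20545 counts beside 5422 of *mt-Rnr2* in wild-type 55, and 36146 beside 9636 in homozygous mutant 43. *mt-Nd6* was not separated either, with 507 beside 9831 in wild-type 59 and 382 beside 9636 in homozygous mutant 43. The ratios of *mt-Nd2*, *mt-Nd4* and *mt-Cytb* to *mt-Rnr2* are not given here. The share of all genes separated on this scale was not computed, so the separation is not read as a trait of these genes. Both separated ratios have the same denominator, whose highest CPM was in wild-type 59 (500 CPM).

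**Figure D4:**
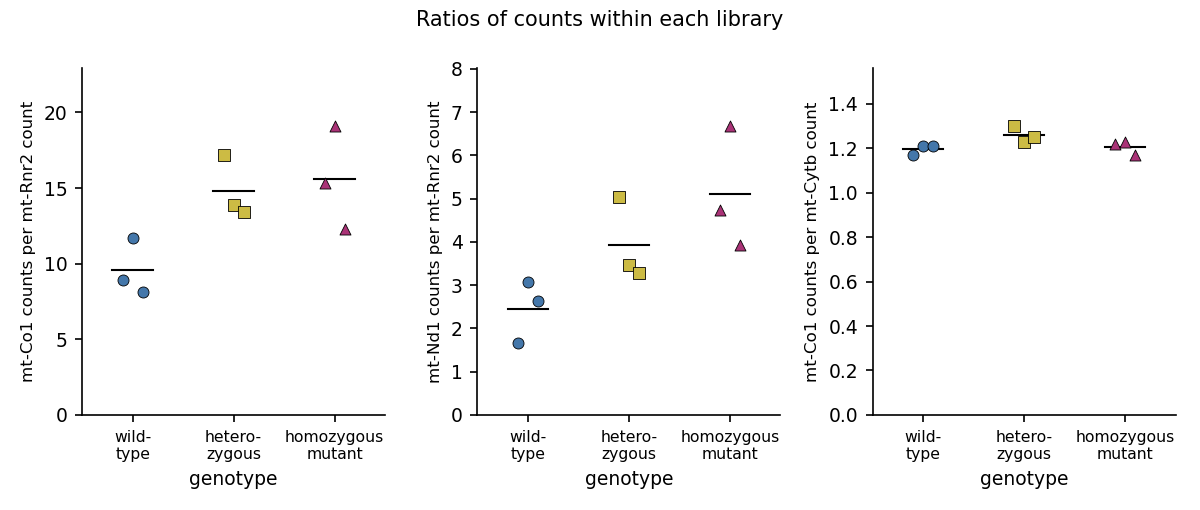
Ratios of counts within each library, by genotype, with 1 point per mouse and the genotype mean as a line, on axes that start at 0. Wild-type libraries lie below all others for *mt-Co1* and *mt-Nd1* per *mt-Rnr2* count, while *mt-Co1* per *mt-Cytb* count stays between 1.17 and 1.30. The ratios to *mt-Rnr2* were chosen after the values were seen.

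Nuclear genes of the same complexes were then described from fixed lists. Of 76 nuclear oxidative phosphorylation genes in the tables, 74 were tested. Of all 15184 genes tested, 36 were called higher and 139 lower in homozygous mutants than in wild-type (1.15% in either direction). Among the 74, 0 were called lower and 1 was called higher. It was *Ndufs4*, an accessory subunit of complex I, which was at 31.1 CPM in wild-type, 57.3 in heterozygous and 102 in homozygous mutant HCs (means of 3 libraries), with 1.64 as the log2 fold change (adjusted p = 0.0909 by edgeR's test, standard error 0.43). The median log2 fold change was 0.35, with 60 of 74 above 0 (49.1% of all genes), compared with 0.72 for the 7 mtDNA genes. In heterozygous minus wild-type HCs it was -0.01 with 35 of 74 above 0, compared with 0.39 for the mtDNA genes. In homozygous mutant minus heterozygous HCs the medians were 0.36 and 0.38. The difference between the nuclear and the mtDNA genes was not tested.

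By complex, the medians in homozygous mutant minus wild-type HCs were 0.39 for the 36 nuclear genes of complex I, 0.39 for the 4 of complex II, which has no mtDNA subunit, 0.37 for the 8 of complex III, 0.35 for the 11 of complex IV and 0.30 for the 15 of ATP synthase. An unadjusted p under 0.05 with a higher level was found for 7, 0, 2, 4 and 2 of these genes (4.92% of all genes). With a lower level it was found for none (8.19% of all genes). The genes with the smallest p were *Ndufs8* (log2 fold change 1.31, adjusted p = 0.195), *Ndufv2* (0.88) and *Ndufa6* (0.81) in complex I, *Uqcrh* (0.71) in complex III, *Ndufa4* (0.82) and *Cox6c* (1.13) in complex IV and *Atp5j2* (0.87) in ATP synthase. None of these was called (1.15% of all genes). The counts of the mtDNA genes per count of nuclear oxidative phosphorylation genes ranged from 0.371 in wild-type 44 to 1.31 in wild-type 59, and all heterozygous and homozygous mutant libraries lay between, at 0.873 to 1.17.

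**Figure D5:**
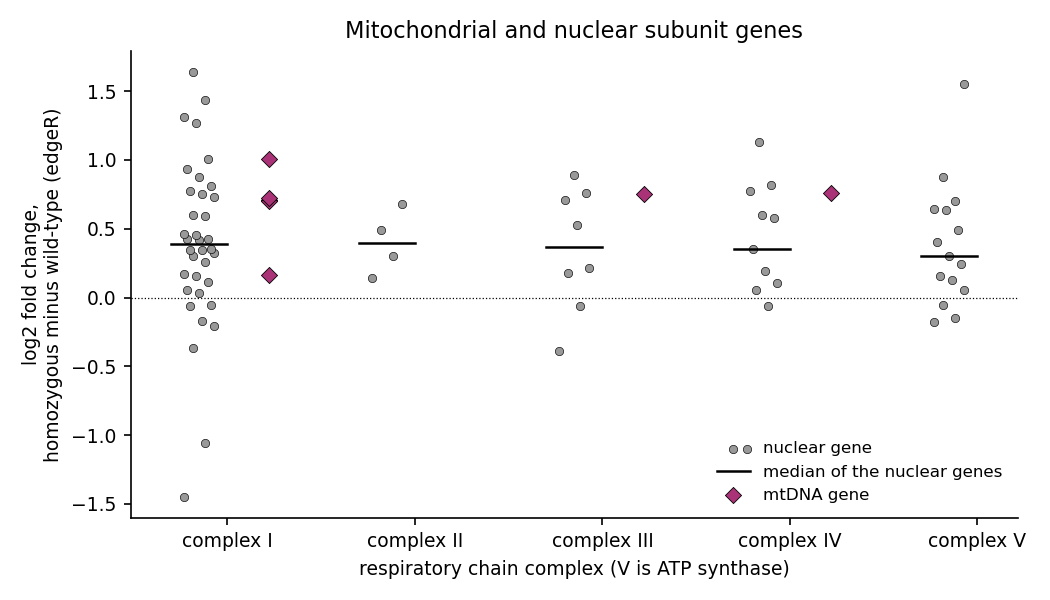
log2 fold changes (edgeR, homozygous minus wild-type) of nuclear subunit genes (circles, with their median as a line) and of the 7 counted mtDNA genes (diamonds), by respiratory chain complex. The medians of the nuclear genes lie between 0.30 and 0.39 and 6 of the 7 mtDNA genes at 0.70 or above.

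Genes that act on mtDNA and its RNA were described from 3 lists, and none of their members was called in either direction (1.15% of all genes). Of 19 tested genes of mtDNA transcription and maintenance, 17 had log2 fold changes above 0 between homozygous mutant and wild-type HCs, as had 49.1% of all genes, with a median of 0.60 against -0.02. *Ssbp1*, the mitochondrial single-strand binding protein, was at 8.49, 13.9 and 32.8 CPM in wild-type, heterozygous and homozygous mutant HCs (log2 fold change 1.87, adjusted p = 0.282, standard error 0.74). *Twnk*, the mtDNA helicase, was at 23.5, 39.0 and 52.0 CPM (1.07, adjusted p = 0.302 from edgeR). *Polg*, the catalytic subunit of the mtDNA polymerase, went the other way, at 114, 96.8 and 67.1 CPM (-0.86, adjusted p = 0.288), and *Top1mt*, the mitochondrial topoisomerase, had 2.61 with a standard error of 1.53.

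The 20 genes of mitochondrial RNA processing and stability had a median log2 fold change of -0.09 with 9 above 0 (49.1% of all genes). *Fastk*, whose mitochondrial form acts on *mt-Nd6* RNA, was at 92.5, 89.1 and 48.8 CPM in wild-type, heterozygous and homozygous mutant HCs (log2 fold change -1.01, adjusted p = 0.199 from edgeR, standard error 0.33). *Slirp*, which stabilizes mitochondrial messenger RNAs with its partner LRPPRC, was at 25.9, 58.6 and 80.9 CPM (1.58, adjusted p = 0.417), and *Hsd17b10*, a part of mitochondrial RNase P, at 50.4, 77.0 and 96.5 CPM (0.87, adjusted p = 0.323). Of the regulators of mitochondrial biogenesis, 7 of 10 were tested, with a median of -0.24 and 3 above 0. *Ppargc1b*, a coactivator of this program, was at 26.9 CPM in wild-type and 5.54 CPM in homozygous mutant HCs (-2.38, standard error 1.03, adjusted p = 0.323).

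Over the 9 libraries, the genes outside mtDNA whose log2 CPM was most like the mean log2 CPM of the 7 genes were *Med21* (Pearson's r = 0.967), *Gpbp1* (0.963), *Gm9892* (0.960), *Gm4540* (0.958), *Ssb* (0.954), *Ncl* (0.952), *Dld* (0.948), *Ibtk* (0.944), *Trim37* (0.937) and *Dynlt5* (0.936). These are the highest of all genes tested and a description, since 9 libraries share genotype and depth. None of them was called between homozygous mutant and wild-type HCs, and their log2 fold changes were 0.21 to 1.13. For comparison, r of each mtDNA gene with the mean that includes it was 0.878 for *mt-Nd6* and 0.952 to 0.991 for the other 6, and it was 0.798 for *mt-Rnr1* and 0.729 for *mt-Rnr2*.

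The sorted cells were checked through marker lists, whose part in the mtDNA counts was not tested. All 10 HC markers were detected in every genotype, at a summed level of 11300 to 16000 CPM in wild-type, 11600 to 15100 in heterozygous and 9730 to 11900 in homozygous mutant HCs. None was called by edgeR (1.15% of all genes), and 4 had an unadjusted p under 0.05 with a lower level in homozygous mutants, as had 8.19% of all genes. Among them was *Otof*, the calcium sensor of transmitter release, at 4980, 4270 and 2520 CPM (log2 fold change -1.07, adjusted p = 0.125 from edgeR). The study used DESeq2 at the same thresholds and reported *Otof*, *Myo7a* and *Gfi1* of this list as significantly lower in homozygous mutants. The DESeq2 results of these markers are not given here. The 8 supporting cell markers summed to 1030 to 2370, 1130 to 2030 and 1070 to 1420 CPM in the same order of genotypes, and the 6 neuron markers to 292 to 445, 264 to 461 and 331 to 379 CPM.

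The 4 mesenchyme markers summed to 59.9 to 164, 52.6 to 96.2 and 36.3 to 522 CPM in wild-type, heterozygous and homozygous mutant libraries. The Schwann and glia markers are not reported as a whole. Of them *Mbp*, a myelin protein gene, was at 12.5, 16.6 and 61.2 CPM in the same order (log2 fold change 2.24, standard error 0.92, adjusted p = 0.311 from edgeR, unadjusted p = 0.0275), so the homozygous mutant mean was the highest although the gene was not called. *Sox10*, a glial transcription factor, was at 84.4, 79.7 and 64.4 CPM (-0.46, adjusted p = 0.753). The 4 macrophage markers summed to at most 8.49 CPM and the 3 endothelial markers to at most 4.53 CPM in any library, and all 5 red blood cell markers were at 0 in every library. How reads that fit more than 1 place were counted is not given, so these zeros alone do not show that such cells were absent. The 10 immediate early and stress genes, which respond to dissociation, summed to 4130 to 8310, 4060 to 6460 and 3890 to 5820 CPM. Of the 9 tested, 0 were called (1.15% of all genes). *Egr1*, a growth factor response gene, had the smallest p of these (1710, 1410 and 1060 CPM, log2 fold change -0.76, adjusted p = 0.35).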

How the data were processed

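Sorted HCs of P1 mice gave 1 library per mouse, sequenced with 75-base paired reads. The authors deposited raw counts per gene, without normalization, after alignment to GRCm38 with HISAT2 version 2.0.4 and counting with HTSeq, as the methods and the submitters' processing notes give it. The HTSeq version, its strand setting and its treatment of reads with several places are not given in the sources used here. Each library was matched to its genotype through its label. Total counts were 18175317 to 34873964, and limits from counts cover counting error only.

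CPM were computed from the raw counts and library totals. Genes that reached 20 reads in 2 or 3 mice of a genotype (15184) entered edgeR 4.0.16, whose quasi-likelihood test was run with robust dispersion and TMM on all 9 libraries together, and called at a false discovery rate under 10% (Benjamini-Hochberg) and a fold above 1.5, except that the trend had no fold threshold. The p-values set a genotype difference against the spread between mice, which was estimated from all 9 libraries with information shared across genes. Sequences were read from the transcripts of GENCODE vM21 (GRCm38), and exact windows of 75 bases were searched in 141730 transcripts. The script was tested on simulated counts.

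The genes and lists (respiratory chain, mtDNA maintenance, RNA processing, biogenesis, immediate early and cell type markers) were chosen with earlier results of these data known. The genes named were all members of the set, the other mtDNA protein genes and rRNAs, nuclear copies with the minimum of reads, called genes and up to 4 genes of smallest p per list, and the 10 genes most alike. Alternatives were DESeq2 1.42.0, limma-voom (limma 3.58.1) with quality weights, other scalings and filters, a fit without the third genotype, other thresholds and each library left out in turn. For 1 marker list the result is not reported here. After the data were seen, terms for mouse number and for *Xist* above *Ddx3y*, and the loss of 2 libraries together, were added. R 4.3.3 and Python 3.11.15 (pandas 2.3.3, matplotlib 3.10.9) were used.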

Additional observations from a re-analysis of the deposited data

How the results depend on the processing

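The median log2 fold change of the 7 genes kept its sign under every alternative run, at 0.58 to 1.14 between homozygous mutant and wild-type HCs and 0.10 to 0.77 between heterozygous and wild-type HCs when 1 library was left out. Genes called between homozygous mutant and wild-type HCs (175) numbered 966 with DESeq2, 338 with limma-voom, 562 with no filter, 110 with the compared genotypes alone, 61 at a false discovery rate under 5%, 20 to 697 with 1 library left out, 25 with the mouse number term, 12 with the *Xist* term and 23 without wild-type 59 and homozygous mutant 46. For the trend (270) these counts were 1038, 783 and 466 with DESeq2, limma-voom and no filter, 93 at 5%, 34 to 920 with 1 library left out, and 59, 15 and 21 under the choices made after the data were seen. Between heterozygous and wild-type HCs (0) they were 46 with DESeq2, 1 with limma-voom, 3 with no filter, 1 with the mouse number term and 0 to 1 with 1 library left out. Between homozygous mutant and heterozygous HCs (1) they were 147, 12 and 69 with DESeq2, limma-voom and no filter, 2 with the compared genotypes alone, 0 to 6 with 1 library left out and 0 under the choices made after the data were seen.

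Of the 7 mtDNA genes, called between homozygous mutant and wild-type HCs were 2 with DESeq2, 6 with limma-voom, 1 with no filter and 0 to 1 with 1 library left out. For the trend these were 2, 6, 2 and 0 to 1. With 1 library left out, the gene called was *mt-Nd1* without wild-type 59. *mt-Nd6* changed sign: its log2 fold change between homozygous mutant and wild-type HCs was -0.14 to 0.98 with 1 library left out, being -0.11 without wild-type 44, -0.14 without wild-type 55 and -0.07 without homozygous mutant 46, and its slope was -0.05 to 0.48, being -0.03, -0.04 and -0.05 without the same libraries. Between heterozygous and wild-type HCs it was -0.52 to 0.59 with 1 library left out (0.59 without wild-type 59), 0.18 with limma-voom and 0.61 without wild-type 59 and homozygous mutant 46. The causes were not tested.

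The study describes the wild-type controls as littermates of the homozygous mutants. No analysis paired by litter was possible because the labels do not give the litter of each mouse. With 3 mice a genotype, the biological coefficient of variation was 27.1% to 37.8% for 6 of the genes and 70.1% for *mt-Nd6*, whose interval was correspondingly wide. *Xist* was above *Ddx3y* in wild-type 44 and 59 and heterozygous 48 and in no homozygous mutant. The labels do not give the sex that this term stands for. It was uneven between genotypes, so its part and that of genotype cannot be fully told apart. With it the homozygous minus wild-type median was 0.72, but the adjusted p from edgeR rose from 0.245 to 0.823 for *mt-Co1* and from 0.288 to 0.868 for *mt-Nd1*. All homozygous mutants, wild-type 44 and heterozygous 45 had mouse numbers of 47 or lower. With a term for this the median was 0.63, and the adjusted p from edgeR was 0.803 for *mt-Co1* and 0.862 for *mt-Nd1*. What the numbers mean is not given. The 3 genes near a count of 0 cannot be compared at all.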
